A study of Mus musculus with 12 samples.

Results

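The response of the control spinal cord to a demyelinating lesion was measured by comparing 3 RNA-seq libraries made 4 days after the lesion (4dpl) with 3 libraries of unlesioned cord, all from mice without cre. These 6 libraries were chosen by their sample labels from a set of 12, the others being the same conditions in mice labelled Tet1 mutant. The controls were Olig1 +/+;Tet1 fl/fl mice of either sex at postnatal day 60, which carry the floxed Tet1 alleles but no cre. Lysolecithin (LPC), a detergent-like lipid that strips myelin where it is injected, was placed in the ventrolateral white matter, and the unlesioned tissue came from the opposite side of the cord of injected animals. Lesioned tissue therefore differs from unlesioned tissue by the needle tract and the injected lipid together, and the unlesioned side is not tissue from an untouched mouse. The tissue was dissociated to cells and enriched for oligodendroglia on a Percoll gradient. The cells were not sorted, so each library is a mixture of cell types. In such bulk libraries, fewer cells of a type and less RNA per cell cannot be told apart. The labels do not say which libraries share a mouse. The p-values weigh each difference against the spread between libraries, which was estimated from all 12.

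After LPC, oligodendrocytes and their myelin are lost from the injected white matter. In the following days microglia and infiltrating monocyte-derived macrophages take up the debris, whose sphingolipids are degraded in lysosomes and whose cholesterol is exported or stored as esters. Oligodendrocyte progenitors are recruited and divide before new myelin is made, and astrocytes become reactive around the lesion.

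The control libraries held between 39383778 and 67251544 counts, with 40023, 44108 and 43869 genes counted at least once in the unlesioned libraries and 33964, 34753 and 37516 at 4dpl. Levels are given as CPM, counts scaled to a common library size with TMM factors, and differences as log2 fold changes of 4dpl over unlesioned. Blood and marrow transcripts made up a large and uneven part of the counts. Hemoglobin genes took 7.62%, 11.2% and 4.38% of all counts in the unlesioned libraries and 3.36%, 2.74% and 1.07% at 4dpl. S100a8 and S100a9, which encode the neutrophil protein calprotectin, took between 4.03% and 7.44% in the unlesioned libraries and between 1.497% and 1.72% at 4dpl. Reads on olfactory, vomeronasal and trace amine receptor genes, which the cord should hardly express, came to 303, 676 and 1270.0 CPM unlesioned, computed before TMM scaling. They came to 105, 105 and 188 CPM at 4dpl. On all 3 measures every unlesioned library lay above every 4dpl library. Unlesioned replicate 1 stood apart from the other unlesioned libraries, with a sample weight of 0.260 in limma's voom against 1.82 and 1.04, and with 23 of 25 interferon-stimulated genes at their highest of the 6 libraries. For most gene lists, counts of calls are given with and without it. For broad classes, such as receptor genes and predicted genes, they are given only with it.

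**Figure D1:**
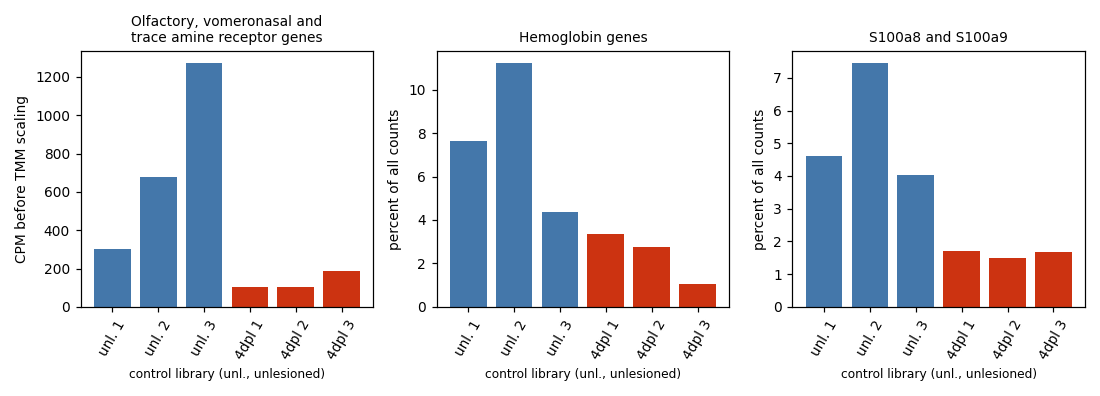
Bars give the share of counts in each control library (blue, unlesioned, abbreviated unl.; red, 4dpl) from olfactory, vomeronasal and trace amine receptor genes (CPM), hemoglobin genes (percent of all counts) and S100a8 with S100a9 (percent of all counts). Each of the 3 unlesioned bars is higher than each of the 3 bars at 4dpl in every panel, and receptor reads reach 1270.0 CPM in unlesioned replicate 3.

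With the quasi-likelihood test of edgeR and Benjamini-Hochberg adjustment, 1592 of 31109 genes were called higher at 4dpl (5.12%) and 1558 called lower (5.01%). A gene was called at a p-value below 0.01 and an adjusted p below 0.05. The rises and falls lay at different levels of expression. Among the 8247 genes whose average over the 12 libraries reached 4 log2 CPM, called well expressed here, 1277 were called higher (15.5%) and 53 lower (0.643%). Their median log2 fold change was 0.42. Among the other 22862 genes the median was -0.89, and 1196 of the 1558 falls averaged below 0 log2 CPM, against 6 of the rises. Protein-coding genes made up 1557 of the rises and 771 of the falls. The 3 libraries at 4dpl lay above all 3 unlesioned libraries for 16.5% of all genes tested and below them for 21.4%. Among well expressed genes these shares were 43.5% and 3.83%.

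**Figure D2:**
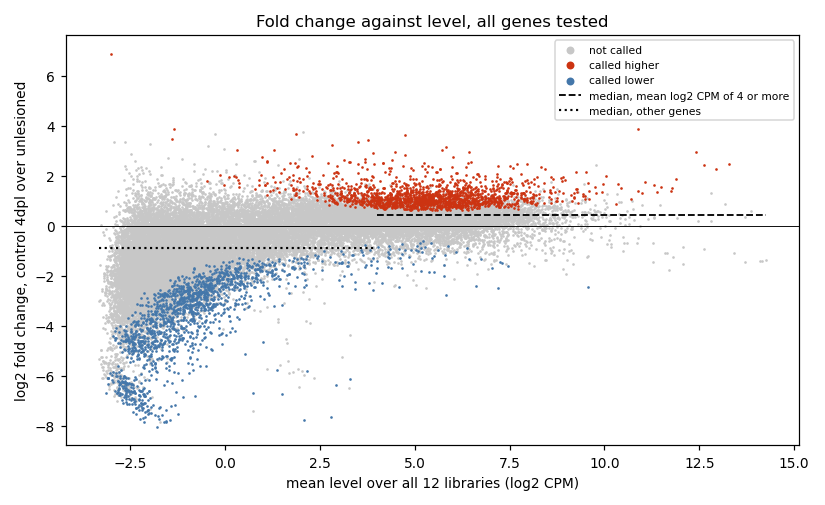
Each point is 1 of 31109 genes, placed by its mean level over all 12 libraries (log2 CPM, x axis) and its log2 fold change in the control, 4dpl over unlesioned (y axis). Genes called higher (red, 1592) lie mostly to the right and genes called lower (blue, 1558) mostly to the left, and the dashed and dotted lines mark the medians of 0.42 and -0.89 for genes at or above and below 4 log2 CPM.

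The zero of the fold changes depends on the scaling. In an alternative chosen after the data were seen, the libraries were scaled on the well expressed genes alone. The median over all genes then moved from -0.36 to -0.87 and that of the well expressed genes from 0.42 to -0.06. This setting called 534 genes higher (1.72%) and 4346 lower (14%), so that rises were 10.9% of the calls where they had been 50.5%. Of well expressed genes it called 5.37% higher and 7.01% lower. Adjusted p-values also lay close to the threshold, the smallest being 0.0161, and the number of calls depended on single libraries. The numbers called higher and lower were 4124 (12.2%) and 3277 (9.67%) without unlesioned replicate 1, with 41.8% of well expressed genes higher and 0.558% lower. They were 1 and 0 without unlesioned replicate 2, and 81 and 33 without unlesioned replicate 3. They were 3 and 1 without 4dpl replicate 1, 2 and 0 without 4dpl replicate 2, and 936 and 903 without 4dpl replicate 3. At an unadjusted p below 0.01, which 2246 genes reached with a rise and 2487 with a fall, the same omissions left between 966 and 4124 rises and between 1377 and 3277 falls. All 125 genes named here as called kept their direction in each of these 6 fits and under the other scaling, but their calls did not all hold, 114, 1, 35, 3, 2 and 86 remaining called in the order given above and 92 under the other scaling. Counts per list without unlesioned replicate 1, given below, are to be read against the 41.8% of well expressed genes called higher in that fit.

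The smallest p-value belonged to Gpx3 (chr11:54902453-54910377, GRCm38), which encodes a secreted glutathione peroxidase. Gpx3 was at 15.97, 10.2 and 22.7 CPM in unlesioned replicates 1 to 3 and 74.2, 83.4 and 90.3 CPM in 4dpl replicates 1 to 3, a rise in every 4dpl library over every unlesioned library (log2 fold change 2.34, standard error 0.27, edgeR adjusted p = 0.0161). Mr1, which presents vitamin B metabolites to T cells, was at 6.01, 3.25 and 4.49 CPM unlesioned and 28.3, 17.9 and 30.1 CPM at 4dpl. Mr1 rose by 2.47 on the log2 scale (standard error 0.32, edgeR adjusted p = 0.0214). Cd22, a sialic acid receptor of B cells and of phagocytes, was at 9.09, 6.18 and 9.36 CPM unlesioned and 33.3, 35.2 and 44.7 CPM at 4dpl. Cd22 rose by 2.2004 on the log2 scale (standard error 0.31, edgeR adjusted p = 0.0214). For these 3 genes the lowest library at 4dpl was above the highest unlesioned one. Mrgpre and Gpr157, both orphan receptors, were at 4.395, 3.97 and 5.002 CPM unlesioned and 25.997, 19.8 and 23.1 CPM at 4dpl and at 10.4, 4.65 and 8.27 CPM unlesioned and 46.9, 36.01 and 33.2 CPM at 4dpl, respectively (log2 fold changes 2.36 and 2.32, standard errors 0.33 and 0.34). Efemp2, an elastic fibre protein, had 6.87, 6.99 and 9.496 CPM unlesioned and 24.1, 22.3 and 26.5 CPM at 4dpl (log2 fold change 1.64, standard error 0.23). Slc27a1, a fatty acid transporter, and Gga2, an adaptor that sorts cargo from the Golgi to endosomes, rose by 1.54 (standard error 0.22) and 1.68 (standard error 0.25) on the log2 scale. The collectin Colec12, a scavenger receptor, completed the annotated genes with the 10 smallest p-values, at 2.89, 2.53 and 6.58 CPM unlesioned and 29.4, 20.01 and 40.8 CPM at 4dpl (log2 fold change 2.91, standard error 0.42, edgeR adjusted p = 0.0214). All of these kept a log2 fold change of at least 1.427 whichever library was left out.

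Among the largest rises were secreted proteins and transmembrane proteins of phagocytes. Igf1, a growth factor for oligodendroglia, was at 5.09, 4.82 and 23.5 CPM unlesioned and 114, 65.5 and 92.2 CPM at 4dpl. Igf1 rose by 3.02 on the log2 scale (standard error 0.71, edgeR adjusted p = 0.0316). Unlesioned replicate 3 was the highest of the unlesioned libraries for Igf1 and still lay below the lowest at 4dpl. The same library held the highest unlesioned level of Gpnmb, a glycoprotein of lipid-loaded phagocytes, at 148, 19.8 and 805 CPM unlesioned and 4398, 4973 and 5022 CPM at 4dpl. Gpnmb rose by 3.89 on the log2 scale (standard error 1.11, edgeR adjusted p = 0.0447). Spp1 (osteopontin) was at 2396, 262 and 2325 CPM unlesioned and 16408, 11406 and 10879 CPM at 4dpl, and Ecm1, a secreted matrix protein, at 47.3, 8.33 and 28.9 CPM unlesioned and 183, 319 and 159.7 CPM at 4dpl. Spp1 and Ecm1 rose by 2.96 (standard error 0.77) and 2.97 (standard error 0.503) on the log2 scale. Pf4, a chemokine of platelets and of some macrophages, was at 15.8, 8.16 and 27.98 CPM unlesioned and 127, 257 and 75.1 CPM at 4dpl (log2 fold change 3.14, standard error 0.59, edgeR adjusted p = 0.0252). Akr1b8 and Gstm2, enzymes that detoxify aldehydes and electrophiles, rose from low levels, Akr1b8 from 1.41, 0.297 and 0.645 to 8.46, 17.04 and 4.65 CPM and Gstm2 from 1.11, 0.234 and 0.938 to 9.18, 5.69 and 3.71 CPM. Akr1b8 and Gstm2 rose by 3.67 (standard error 0.74) and 3.02 (standard error 0.58) on the log2 scale. Htr2b, a serotonin receptor found on microglia, was at 0.864, 0.744 and 7.72 CPM unlesioned and 32.6, 31.6 and 35.7 CPM at 4dpl, with unlesioned replicate 3 again the highest of its group (log2 fold change 3.42, standard error 0.88). Mamdc2, Fblim1 and Thbs2 rose by 3.23 (standard error 0.62), 2.84 (standard error 0.49) and 2.78 (standard error 0.43) on the log2 scale, also without overlap between the groups.

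**Figure D3:**
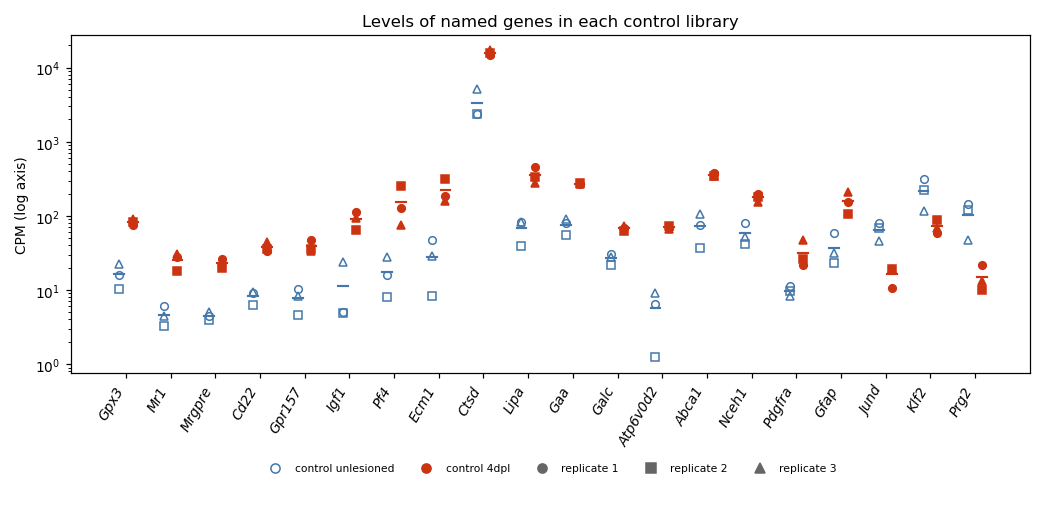
Points give the level of 20 named genes in each of the 3 control unlesioned (blue, open) and 3 control 4dpl (red, filled) libraries in CPM on a log axis, with the replicate number shown by the symbol and the group mean by a bar. The 2 groups do not overlap for any gene plotted, the last 3 of which (Jund, Klf2 and Prg2) are lower at 4dpl.

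Of the 37 gene lists, lysosomal enzymes had the largest share of members called. Of 32 lysosomal hydrolases and cofactors tested, 30 were called higher and 0 lower, and the median log2 fold change of the 32 was 1.68 (median of all genes -0.36, of well expressed genes 0.42). Summed over the list the level was 16938, 10332 and 20920.0 CPM in the unlesioned libraries and 56765, 61273 and 63687 CPM at 4dpl, so the lowest lesioned library held more than the highest unlesioned one. Cathepsin D (Ctsd, chr7:142375911-142388038), an aspartic protease, was at 2401, 2394 and 5188 CPM unlesioned and 14946, 15569 and 17092 CPM at 4dpl. Ctsd rose by 2.25 on the log2 scale (standard error 0.51, edgeR adjusted p = 0.0297). Cathepsin B (Ctsb), a cysteine protease, was at 2522, 1320.4 and 3384 CPM unlesioned and 12792, 12864 and 13237 CPM at 4dpl. Ctsb rose by 2.43 on the log2 scale (standard error 0.49, edgeR adjusted p = 0.0256). Lipa, the acid lipase that frees cholesterol from its esters, was at 82.7, 39.3 and 82.6 CPM unlesioned and 460.2, 336 and 278 CPM at 4dpl (log2 fold change 2.39, standard error 0.36, edgeR adjusted p = 0.0214). All 3 enzymes were higher in each lesioned library than in any unlesioned one. The enzymes that digest myelin glycolipids behaved alike in direction but differed in size. Galc, which cleaves galactosylceramide, was at 30.3, 21.8 and 28.02 CPM unlesioned and 67.7, 63.03 and 73.6 CPM at 4dpl. Galc rose by 1.35 on the log2 scale (standard error 0.22, edgeR adjusted p = 0.0214). Arsa, which removes the sulfate of sulfatide, was at 43.2, 40.8 and 36.3 CPM unlesioned and 60.2, 79.05 and 70.8 CPM at 4dpl. Arsa rose by 0.81 on the log2 scale (standard error 0.23, edgeR adjusted p = 0.0432). Hexa, a subunit of the ganglioside hydrolase, and Gaa, the acid glucosidase of glycogen, rose by 1.697 (standard error 0.32) and 1.87 (standard error 0.31) on the log2 scale. The members not called were the sphingomyelinase Smpd1, at 73.9, 54.7 and 58.6 CPM unlesioned and 88.1, 98.5 and 97.9 CPM at 4dpl (log2 fold change 0.604, standard error 0.27, edgeR adjusted p = 0.137), and the sialidase Neu1, whose log2 fold change was 0.45 (standard error 0.25). The number called was 31 without unlesioned replicate 1, 9 without unlesioned replicate 3, 24 without 4dpl replicate 3, 0 without any one of the other 3 libraries and 25 when scaled on well expressed genes. At an unadjusted p below 0.01, between 28 and 30 members rose in each of the 5 fits that kept unlesioned replicate 1.

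Many lysosomal genes carry near their start an E-box of the type bound by the MiT/TFE factors (Tfeb, Tfe3 and Mitf), whose core reads TCACGTG. The 250 bases before each start of RefSeq genes on GRCm38.p6 were searched for these letters on both strands. A palindromic TCACGTGA matches on both strands and counts its gene once. Of 27 lysosomal hydrolases and cofactors with a promoter in the table, 8 held the motif (29.6%), and of 24 proton pump and lysosome membrane genes 5 did (20.8%). The share was 3.58% over all 27025 genes with a promoter, 6.50% over well expressed genes tested, 7.94% over genes called higher and 2.21% over genes called lower. An AP-1 motif (TGANTCA) was present in 11.1% of the 27 lysosomal promoters against 7.82% of all, and the PU.1 core GAGGAAG in 4 of 27 (14.8%) against 3244 of 27025. The 8 lysosomal hydrolases that hold the E-box were all called higher, as were 22 of the other 24 members of the list, 5 of which had no promoter in the table. The motif in its context is shown for all 8 hydrolase genes and all 5 genes of the pump and membrane that hold it, read 5′ to 3′ along the gene with the motif in capitals, because these genes belong to the lists in which the largest shares of members were called. CACGTGA is the motif on the other strand.
Ctsd (chr7:142387909-142387935, minus strand): gcccgcgtcTCACGTGAcccgttgagg
Gaa (chr11:119267812-119267838, plus strand): ttctgtgcgaTCACGTGtttgactctg
Gla (chrX:134601183-134601209, minus strand): agatctcggTCACGTGAgcaactctcg
Glb1 (chr9:114401019-114401045, plus strand): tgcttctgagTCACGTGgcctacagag
Lgmn (chr12:102439126-102439152, minus strand): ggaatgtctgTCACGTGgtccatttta
Naglu (chr11:101070010-101070036, plus strand): aaccttcaggTCACGTGgcccgaggtc
Arsa (chr15:89477425-89477451, minus strand): caactcagtgTCACGTGttgtctgctc
Sgsh (chr11:119355523-119355549, minus strand): gcctgccgtgCACGTGAccgtggggag
Atp6v1a (chr16:44139374-44139400, minus strand): ttttttaaaTCACGTGAtaggcttaac
Clcn7 (chr17:25133365-25133390, plus strand): ccgtcgtcagTCACGTGggcaccgat
Atp6v0b (chr4:117887332-117887358, minus strand): ggtcggcgcaTCACGTGcgccggtcag
Lamp1 (chr8:13159135-13159160, plus strand): CGTGAccacaTCACGTGcggaacgga
Mcoln1 (chr8:3500464-3500490, plus strand): gcgccccgcTCACGTGAccgcggcgca
The capitals that open the Lamp1 window are the end of another match. Of the 5 genes of the pump and membrane with the motif, Atp6v1a and Clcn7 were called higher. Atp6v0b, Lamp1 and Mcoln1 were not called, with log2 fold changes of 0.26 (standard error 0.22), -0.2999 (standard error 0.36) and 0.83 (standard error 0.29).
A match describes letters only and says nothing of binding in these cells.

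The lysosome membrane followed. Of 30 genes of the proton pump and lysosome membrane, 19 were called higher and 0 lower, with a median log2 fold change of 1.01 and a summed level of 6424, 4047 and 4941 CPM in the unlesioned libraries and 10565, 10569 and 9789 CPM at 4dpl. Atp6v0d2, a subunit of the vacuolar proton pump that macrophages and osteoclasts use, was at 6.48, 1.23 and 9.18 CPM unlesioned and 69.3, 73.6 and 66.6 CPM at 4dpl (log2 fold change 3.63, standard error 0.72, edgeR adjusted p = 0.0256). The catalytic subunit Atp6v1a was at 142, 101 and 107 CPM unlesioned and 374, 266 and 243 CPM at 4dpl. Atp6v1a rose by 1.33 on the log2 scale (standard error 0.25, edgeR adjusted p = 0.0256). Neither gene's groups overlapped, and the rise of Atp6v0d2 was the larger on the log2 scale. Mcoln3, a lysosomal cation channel, was at 0.995, 0.425 and 7.76 CPM unlesioned and 31.6, 34.5 and 27.3 CPM at 4dpl, with unlesioned replicate 3 above the other unlesioned libraries (log2 fold change 3.34, standard error 0.79, edgeR adjusted p = 0.0317). Lamp2 and the chloride transporter Clcn7 rose by 1.46 (standard error 0.33) and 1.43 (standard error 0.31) on the log2 scale, whereas Lamp1 was not called, at 866, 386 and 439 CPM unlesioned and 388, 450.4 and 535 CPM at 4dpl. Lamp1 was highest in unlesioned replicate 1. The number of members called was 24 without unlesioned replicate 1, 3 without unlesioned replicate 3, 17 without 4dpl replicate 3 and 0 without any one of the other 3, and 14 under the other scaling. Of 28 autophagy genes only 3 were called, all higher, with a list median of 0.39 that lies near the median of well expressed genes. They were Tecpr1, which tethers autophagosomes to lysosomes (log2 fold change 1.09, standard error 0.23), Atg14 (0.78, standard error 0.205) and Atg5 (0.69, standard error 0.21). The cargo receptor Sqstm1 was at 785, 374 and 399 CPM unlesioned and 1197, 952 and 797 CPM at 4dpl and was not called (log2 fold change 0.92, standard error 0.31, edgeR adjusted p = 0.0677). Under the other scaling 0 autophagy genes were called higher and 4 lower. Without unlesioned replicate 1, 14 of the 28 were called higher, in a fit that called 41.8% of well expressed genes higher.

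Phagocytes export or store the sterol they take up, and cells of the cord can also make cholesterol anew. Of 21 genes of sterol efflux and its nuclear receptor LXR, 13 were called higher, 0 lower and 8 were not called (median log2 fold change 1.30004), and their summed level was 3484, 3637 and 8159 CPM in the unlesioned libraries and 20724, 25284 and 24115 CPM at 4dpl. Abca1, which loads cholesterol onto apolipoproteins, was at 75.5, 37.2 and 105 CPM unlesioned and 377, 344 and 349.6 CPM at 4dpl. Abca1 rose by 2.3003 on the log2 scale (standard error 0.47, edgeR adjusted p = 0.0256). Its acceptor Apoe was at 1836, 2499 and 6656 CPM unlesioned and 17448, 21997 and 20922 CPM at 4dpl (log2 fold change 2.46, standard error 0.56, edgeR adjusted p = 0.0297). Unlesioned replicate 3 had the highest unlesioned level of both, below that of every lesioned library. Soat1, which esterifies cholesterol for storage, and Nceh1, which hydrolyses the esters again, were both called, Soat1 at 124, 51.8 and 89.6 CPM unlesioned and 326, 278 and 221 CPM at 4dpl and Nceh1 at 80.3, 41.5 and 52.4 CPM unlesioned and 196, 179 and 156 CPM at 4dpl. Soat1 and Nceh1 rose by 1.63 (standard error 0.33) and 1.61 (standard error 0.25) on the log2 scale. The LXR gene Nr1h3 and its targets Mylip and Abcg1 rose by 1.43 (standard error 0.41), 1.30004 (standard error 0.29) and 0.96 (standard error 0.28) on the log2 scale. Calls numbered 11 without unlesioned replicate 1, 1 without unlesioned replicate 3, 7 without 4dpl replicate 3, 0 without any one of the other 3 libraries and 6 under the other scaling. Of 23 cholesterol synthesis genes 0 were called in either direction by edgeR, none had an unadjusted p below 0.01, and their log2 fold changes lay between -0.33 and 0.63 around a median of 0.35. Unlesioned replicate 1 was the highest of the 6 libraries for 15 of the 23 genes, and without that library 7 members were called higher, in a fit that called 41.8% of well expressed genes higher.

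Lipid droplet genes and targets of the PPAR receptors were split. Of 25 tested, 8 were called higher and 1 lower, with a median log2 fold change of 0.69. Plin2, which coats lipid droplets, was at 399.8, 117 and 191 CPM unlesioned and 1129.6, 887 and 551 CPM at 4dpl. Plin2 rose by 1.86 on the log2 scale (standard error 0.48, edgeR adjusted p = 0.0368). Fabp5, a fatty acid carrier, was at 244, 156 and 316 CPM unlesioned and 1120.1, 974 and 650.4 CPM at 4dpl. Fabp5 rose by 1.94 on the log2 scale (standard error 0.34, edgeR adjusted p = 0.0244). Angptl4, an inhibitor of lipoprotein lipase, was at 4.92, 2.61 and 4.49 CPM unlesioned and 20.2, 21.7 and 11.5 CPM at 4dpl, and the lipase itself (Lpl) at 50.9, 41.7 and 167 CPM unlesioned and 552, 404 and 495 CPM at 4dpl. Angptl4 and Lpl rose by 2.15 (standard error 0.45) and 2.49 (standard error 0.72) on the log2 scale. The groups did not overlap for any of the 4. The scavenger receptor Cd36 and the carrier Fabp4 also rose (2.04, standard error 0.5997 and 2.405, standard error 0.63). The member called lower was Cidec, a droplet fusion protein, at 0.6198, 0.574 and 0.918 CPM unlesioned and 0.0524, 0.121 and 0.2303 CPM at 4dpl, less than 1 CPM in every library (log2 fold change -2.39, standard error 0.699). The list had 12 members called higher without unlesioned replicate 1, 3 without unlesioned replicate 3, 6 without 4dpl replicate 3, 0 without any one of the other 3 and 4 under the other scaling.

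Microglia are the resident phagocytes of the cord, and those that have taken up myelin express genes of lipid handling. Of 22 genes of lipid-laden and disease-associated microglia, 13 were called higher, 0 lower and 9 were not called (median log2 fold change 1.55), with a summed level of 15371, 10359 and 23340.3 CPM in the unlesioned libraries and 77131, 78543 and 77855 CPM at 4dpl. The list shares Ctsd, Ctsb, Apoe, Lpl, Fabp5, Cd63, Cd68 and Ch25h, all called higher, with the lists above. Cd68, a membrane glycoprotein of phagocyte lysosomes, was at 356, 181 and 439.9 CPM unlesioned and 1423, 1486 and 1487 CPM at 4dpl (log2 fold change 2.17, standard error 0.39, edgeR adjusted p = 0.0244). Trem2, the lipid receptor of these cells, was at 181, 277 and 446 CPM unlesioned and 544, 841 and 787 CPM at 4dpl and missed the threshold narrowly (log2 fold change 1.27, standard error 0.38, edgeR adjusted p = 0.0502). For both genes the 3 lesioned libraries were above the 3 unlesioned ones. Of 18 genes of homeostatic microglia, which are often lower in activated cells, 5 were called higher, 0 lower and 13 were not called, with a median of 1.18. Csf1r, the survival receptor of microglia, was at 1956, 773 and 1511 CPM unlesioned and 3113, 4341 and 4869.6 CPM at 4dpl (log2 fold change 1.54, standard error 0.46, edgeR adjusted p = 0.0478). The defining genes P2ry12, Tmem119 and Cx3cr1 were not called. P2ry12 was at 216, 103 and 252 CPM unlesioned and 360.4, 481 and 725 CPM at 4dpl, Tmem119 at 317, 238 and 449 CPM unlesioned and 482, 829 and 799.5 CPM at 4dpl and Cx3cr1 at 606, 429 and 794 CPM unlesioned and 1121, 1527 and 1812 CPM at 4dpl, each with all lesioned libraries above all unlesioned ones (edgeR adjusted p = 0.0587, 0.0743 and 0.0532). The summed homeostatic level was 7751, 4886 and 8701 CPM in the unlesioned libraries and 13006, 18335 and 22159.8 CPM at 4dpl. Without unlesioned replicate 1, 17 of 22 lipid-laden and 5 of 18 homeostatic genes were called higher. The first share lies above and the second below the 41.8% of well expressed genes called higher in that fit. Without unlesioned replicate 3 the numbers were 5 and 0, and without 4dpl replicate 3 they were 9 and 0. None was called without any one of the other 3 libraries, and the other scaling called 8 and 1.

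**Figure D4:**
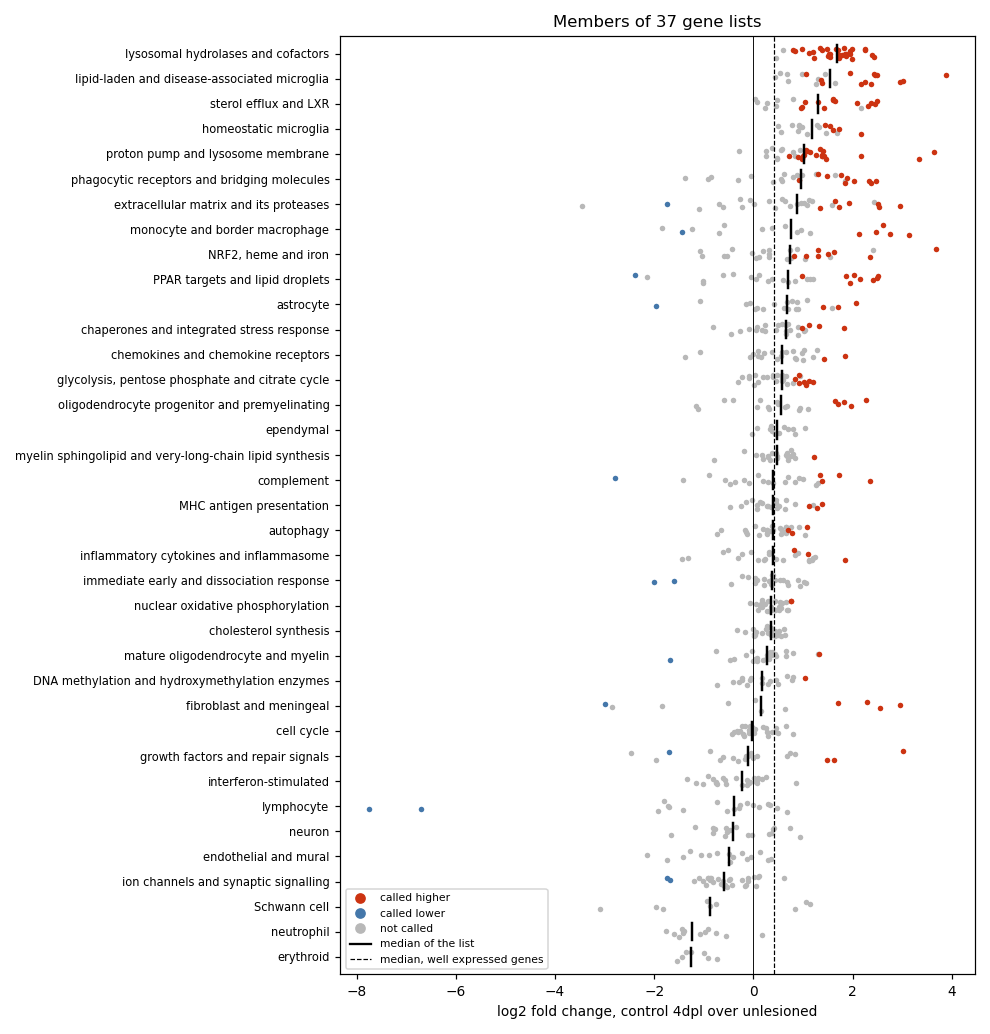
Each point is a member of 1 of 37 gene lists, placed by its log2 fold change in the control, 4dpl over unlesioned (x axis), red where called higher, blue where called lower and grey where not called. Black bars mark the median of each list, which falls from 1.68 for lysosomal hydrolases and cofactors at the top to -1.25 for erythroid genes at the bottom, and the dashed line marks the median of well expressed genes, 0.42.

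Markers of monocytes and of macrophages at the borders of the nervous system went in both directions. Of 16 tested, 5 were called higher (Mrc1, Ms4a7, Pf4, Stab1 and Folr2) and 1 lower (Plac8). Stab1, a scavenger receptor, was at 65.9, 42.8 and 106 CPM unlesioned and 383, 414 and 398 CPM at 4dpl. Stab1 rose by 2.48 on the log2 scale (standard error 0.54, edgeR adjusted p = 0.0279). Ms4a7 was at 15.98, 2.89 and 47.8 CPM unlesioned and 140.2, 189.7 and 119.7 CPM at 4dpl, and the mannose receptor Mrc1 at 4.77, 2.06 and 2.74 CPM unlesioned and 12.97, 21.4 and 7.37 CPM at 4dpl. Ms4a7 and Mrc1 rose by 2.75 (standard error 0.75) and 2.12 (standard error 0.603) on the log2 scale. These genes are used as markers of resident border and tissue macrophages. Other members of the list, Cd209f, Lyve1 and Cd163, were not called, with log2 fold changes of -1.84, -0.60 and 0.17. Which cells carried the rise was not tested. Plac8, a gene of inflammatory monocytes and neutrophils, was at 371, 227 and 165 CPM unlesioned and 124, 97.7 and 60.2 CPM at 4dpl (log2 fold change -1.44, standard error 0.43, edgeR adjusted p = 0.0486), the reverse order of the groups. Calls of higher members numbered 6, 0 and 3 without unlesioned replicates 1, 2 and 3, and 0, 0 and 5 without 4dpl replicates 1, 2 and 3. The call of Plac8 was also lost without unlesioned replicate 1.

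Of 26 receptors that recognise dying cells and debris and their bridging ligands, 10 were called higher, 0 lower and 16 were not called (median log2 fold change 0.95). The receptor tyrosine kinase Mertk was at 84.5, 49.97 and 107 CPM unlesioned and 273, 293 and 329 CPM at 4dpl. Mertk rose by 1.89 on the log2 scale (standard error 0.42, edgeR adjusted p = 0.0282). Its ligand Gas6, which bridges it to exposed phosphatidylserine, was at 54.9, 26.5 and 69.2 CPM unlesioned and 274, 229.6 and 279 CPM at 4dpl (log2 fold change 2.38, standard error 0.37, edgeR adjusted p = 0.0214). Lrp1, a large endocytic receptor for myelin debris and lipoproteins, was at 291, 172 and 304 CPM unlesioned and 765, 1024 and 975 CPM at 4dpl. Lrp1 rose by 1.85 on the log2 scale (standard error 0.39, edgeR adjusted p = 0.0265). Each of the 3 was higher in every lesioned library than in any unlesioned one. The scavenger receptor Msr1 was at 76.8, 7.46 and 24.3 CPM unlesioned and 231, 188 and 128 CPM at 4dpl, with unlesioned replicate 1 above the other unlesioned libraries (log2 fold change 2.33, standard error 0.66). The ligands Pros1 and Mfge8 rose by 1.76 (standard error 0.45) and 1.48 (standard error 0.302) on the log2 scale. The count of 10 became 16 without unlesioned replicate 1, 1 without unlesioned replicate 3, 8 without 4dpl replicate 3, 0 without any one of the other 3 libraries and 8 under the other scaling.

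In 3 lists of inflammatory and immune recognition genes the share called higher was near that of well expressed genes, 15.5%, or below it. Of 23 complement genes, 4 were called higher (among them C3ar1, C1qb and C1qc) and 1 lower (Cfi). The receptor C3ar1 was at 156, 56.9 and 157 CPM unlesioned and 659.6, 608 and 623 CPM at 4dpl (log2 fold change 2.35, standard error 0.496, edgeR adjusted p = 0.0264). C1qa, a subunit of the initiating complex, was at 636, 724 and 1221 CPM unlesioned and 1408, 2243 and 2510.0 CPM at 4dpl and was not called (edgeR adjusted p = 0.0542), while C1qb was (0.0481 by the same test), and all 3 lesioned libraries lay above the unlesioned ones for both. Of 24 cytokine and inflammasome genes 3 were called higher, the sensor Tlr7 at 37.9, 14.98 and 41.6 CPM unlesioned and 114, 103 and 122 CPM at 4dpl (log2 fold change 1.84, standard error 0.44), Tnf at 265, 121 and 173 CPM unlesioned and 293, 394 and 515 CPM at 4dpl (1.104, standard error 0.33) and the inflammasome adaptor Pycard (0.82, standard error 0.22). Tnf lay closest to the threshold, with unlesioned replicate 1 and 4dpl replicate 1 near each other. Il1b and its antagonist Il1rn were not called, Il1b at 1923, 769.5 and 412 CPM unlesioned and 741, 947 and 477 CPM at 4dpl and Il1rn at 644, 46.8 and 36.6 CPM unlesioned and 125, 90.01 and 74.4 CPM at 4dpl, with unlesioned replicate 1 the highest of all 6 libraries. Of 23 chemokines and chemokine receptors, Cxcl14 and Cxcl16 were called higher (1.84, standard error 0.38 and 1.42, standard error 0.397). Without unlesioned replicate 1 the numbers called higher were 7 of 23 complement, 12 of 24 cytokine and 9 of 23 chemokine genes, against 41.8% of well expressed genes. None in the 3 lists was called higher without any one of unlesioned replicates 2 and 3 or 4dpl replicates 1 and 2, and 1 of each was called higher without 4dpl replicate 3 and under the other scaling.

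For antigen presentation and interferon genes the count also depended on that library. Of 22 genes of MHC antigen presentation 3 were called higher, Canx (1.38, standard error 0.31), Pdia3 (1.28, standard error 0.33) and Calr (1.12, standard error 0.33), which are general chaperones of the endoplasmic reticulum. The class I gene H2-K1 was at 1580.4, 590.5 and 608 CPM unlesioned and 1048, 1224 and 1103 CPM at 4dpl and the class II gene H2-Ab1 at 643, 101 and 187 CPM unlesioned and 467, 606 and 205 CPM at 4dpl, and neither was called. In both, unlesioned replicate 1 lay above every lesioned library while unlesioned replicates 2 and 3 lay below them. Of 25 interferon-stimulated genes 0 were called by edgeR, none had an unadjusted p below 0.01, and the list median was -0.24. Ifit1 was at 144, 10.1 and 14.5 CPM unlesioned and 36.5, 23.6 and 23.1 CPM at 4dpl and Irf7 at 395, 55.9 and 48.5 CPM unlesioned and 104, 112 and 79.9 CPM at 4dpl, and again unlesioned replicate 1 was the highest and the other unlesioned libraries the lowest. The summed interferon level was 5679, 1479 and 1354 CPM in the unlesioned libraries and 2009, 2265 and 1877 CPM at 4dpl. Without unlesioned replicate 1, 17 of 22 MHC genes and 11 of 25 interferon genes were called higher and 0 of either lower, the latter near the 41.8% of well expressed genes called higher in that fit, and the interferon median became 1.07. That library also had the highest level of 22 of 27 cell cycle genes and 13 of 19 lymphocyte markers, against 24.7% of well expressed genes. The part of these marker differences in the results was not tested.

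**Figure D5:**
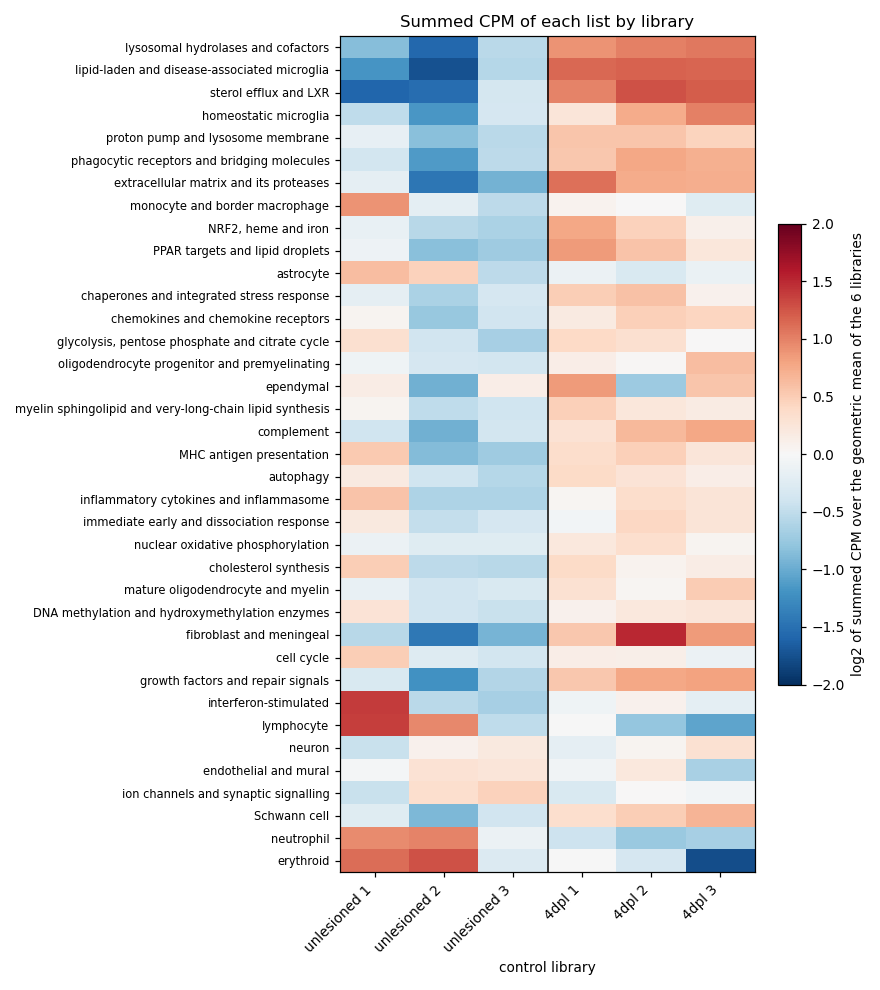
Colours give the summed CPM of each of 37 gene lists in each control library as the log2 of its ratio to the geometric mean of the 6 libraries (red higher, blue lower, limits -2 and 2), with the lists ordered by the median log2 fold change of their members. Lists at the top are blue in the unlesioned and red in the 4dpl columns, whereas the interferon-stimulated list is red in unlesioned replicate 1 alone, at 5679 CPM against 1354 to 2265 CPM in the other 5 libraries.

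In the oligodendrocyte lineage, for which the preparation was enriched, most genes did not pass the test. Of 20 progenitor and premyelinating genes, 5 were called higher, 0 lower and 15 were not called (median log2 fold change 0.56), where 15.5% of well expressed genes were called higher. Pdgfra, the growth factor receptor of progenitors, was at 11.3, 9.67 and 8.38 CPM unlesioned and 21.7, 25.99 and 47.9 CPM at 4dpl (log2 fold change 1.702, standard error 0.34, edgeR adjusted p = 0.0256). Cspg4 (NG2) was at 7.25, 18.95 and 30.3 CPM unlesioned and 53.3, 71.3 and 97.2 CPM at 4dpl. Cspg4 rose by 1.97 on the log2 scale (standard error 0.45, edgeR adjusted p = 0.0303). Gpr17 and Bcas1, which mark cells on the way to myelination, were at 17.4, 9.01 and 9.97 CPM unlesioned and 32.3, 49.3 and 93.1 CPM at 4dpl and at 118, 102 and 119.9 CPM unlesioned and 316, 183 and 566 CPM at 4dpl, respectively. Gpr17 and Bcas1 rose by 2.26 (standard error 0.54) and 1.65 (standard error 0.42) on the log2 scale. The groups did not overlap for these genes, and 4dpl replicate 3 was the highest library for all 4. Lhfpl3 had the same order, at 5.32, 4.101 and 6.82 CPM unlesioned and 9.58, 10.6 and 37.3 CPM at 4dpl (log2 fold change 1.82, standard error 0.45, 0.96 at the lowest with 1 library left out). Not all lineage genes were higher, since Olig2 was at 20.7, 17.04 and 16.2 CPM unlesioned and 5.77, 9.41 and 9.58 CPM at 4dpl, lower in each lesioned library though not called (edgeR adjusted p = 0.133). Pdgfra also marks fibroblasts, whose collagens rose too. Of 24 mature oligodendrocyte and myelin genes 1 was called higher and 1 lower, and the list summed to 25472, 21864 and 22884 CPM in the unlesioned libraries and 35095, 29042 and 40229 CPM at 4dpl. Mobp, a basic protein of compact myelin, was at 1131, 1071 and 1139.9 CPM unlesioned and 2597, 1696 and 4112 CPM at 4dpl (log2 fold change 1.33, standard error 0.396, edgeR adjusted p = 0.0484), and Mbp, a major myelin protein, at 4398, 3642 and 3699 CPM unlesioned and 8643, 6007 and 14398 CPM at 4dpl without a call (log2 fold change 1.31, standard error 0.46, edgeR adjusted p = 0.0729). Mog and Mag overlapped between the groups, Mog at 566, 485 and 511 CPM unlesioned and 589.7, 545 and 516 CPM at 4dpl and Mag at 1284, 1539 and 1234 CPM unlesioned and 1533, 1477 and 1142 CPM at 4dpl. Of 21 genes that make myelin sphingolipids and long-chain lipids 1 was called, the desaturase Fads1 (1.22, standard error 0.27). In the fit without unlesioned replicate 1, 1 myelin gene was called higher and 0 lower, and 5 genes of myelin lipid synthesis higher. Progenitor calls numbered 5, 0 and 1 without unlesioned replicates 1, 2 and 3, and 0, 0 and 1 without 4dpl replicates 1, 2 and 3. The 5 of 20 without unlesioned replicate 1 lay below the 41.8% of well expressed genes called higher in that fit. The scaling on well expressed genes called 2 progenitor genes higher and 2 lower, and 0 myelin genes higher and 2 lower.

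Among other cells of the cord, Gfap, the filament protein of reactive astrocytes, was at 57.9, 22.9 and 31.1 CPM unlesioned and 155, 105 and 209 CPM at 4dpl (log2 fold change 2.07, standard error 0.35, edgeR adjusted p = 0.0214). Serpina3n, a protease inhibitor of reactive astrocytes, was at 132, 41.3 and 84.9 CPM unlesioned and 295, 212 and 339 CPM at 4dpl (log2 fold change 1.71, standard error 0.43, edgeR adjusted p = 0.0355), and the astrocyte connexin Gja1 at 10.3, 8.24 and 11.997 CPM unlesioned and 37.1, 14.8 and 28.7 CPM at 4dpl (log2 fold change 1.396, standard error 0.39). These were the 3 of 20 astrocyte genes called higher, a share near the 15.5% of well expressed genes. The oncostatin receptor Osmr was called lower, at 2.31, 3.27 and 5.08 CPM unlesioned and 1.12, 0.8496 and 0.759999 CPM at 4dpl (log2 fold change -1.96, standard error 0.42). The groups did not overlap for any of the 4. Of 18 neuronal, 16 endothelial and mural, 12 ependymal and 9 Schwann cell genes 0 were called by edgeR, with 1, 1, 0 and 1 lower and 0, 0, 0 and 2 higher at an unadjusted p below 0.01. The neuronal list summed to between 137 and 231 CPM and the endothelial one to between 45.4 and 86.1 CPM over the 6 libraries. Of 31 ion channel and synaptic genes 0 were called higher and 2 lower. Without unlesioned replicate 1, 4 astrocyte genes were called higher and 1 lower, 2 neuronal and 2 endothelial genes lower, 2 Schwann cell genes higher and 2 lower, and 6 ion channel and synaptic genes lower. That fit called 41.8% of well expressed genes higher and 0.558% lower. Of the calls in this paragraph, 0 remained without any one of unlesioned replicates 2 and 3 and 4dpl replicates 1 and 2.

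Collagen genes of fibroblasts rose from low levels. Col1a1 was at 8.19, 3.34 and 3.17 CPM unlesioned and 22.6, 46.1 and 17.02 CPM at 4dpl (log2 fold change 2.54, standard error 0.43, edgeR adjusted p = 0.0219), and Col3a1 at 12.5, 2.34 and 5.51 CPM unlesioned and 33.8, 82.9 and 40.4 CPM at 4dpl. Col3a1 rose by 2.94 on the log2 scale (standard error 0.71, edgeR adjusted p = 0.03399). Both fibrillar collagens were highest in 4dpl replicate 2, and Col1a2 had the same order, at 9.05, 6.59 and 8.32 CPM unlesioned and 27.6, 62.9 and 26.99 CPM at 4dpl (log2 fold change 2.29, standard error 0.42). Of 11 fibroblast and meningeal genes 4 were called higher, the collagens and Pdgfra, and 1 lower, the transporter Slc47a1, which was below 1 CPM in every library, and the list median was 0.15. Of 29 genes of the extracellular matrix and its proteases 7 were called higher and 1 lower (median log2 fold change 0.88). Fibronectin (Fn1) was at 538, 88.6 and 141 CPM unlesioned and 1067, 988 and 852 CPM at 4dpl (log2 fold change 1.92, standard error 0.53, edgeR adjusted p = 0.0425), the macrophage elastase Mmp12 at 13.8, 2.698 and 6.41 CPM unlesioned and 60.2, 40.1 and 29.6 CPM at 4dpl (log2 fold change 2.503, standard error 0.64, edgeR adjusted p = 0.0364) and the membrane protease Mmp14 at 83.3, 13.003 and 29.04 CPM unlesioned and 119, 152 and 119 CPM at 4dpl (1.64, standard error 0.48). In all 3 unlesioned replicate 1 was the highest of its group. Lama2, a laminin chain of basement membranes, was lower, at 3.47, 4.29 and 9.95 CPM unlesioned and 0.874, 2.84 and 1.59 CPM at 4dpl (log2 fold change -1.74, standard error 0.47). Of 21 growth factors and repair signals tested, Igf1, progranulin (Grn) and Fgf2 were called higher and the repulsive cue Sema3a lower. Grn, which is active in lysosomes, was at 1587, 938 and 1653 CPM unlesioned and 3727, 4563 and 4665 CPM at 4dpl (log2 fold change 1.63, standard error 0.38, edgeR adjusted p = 0.0307), Fgf2 at 1.43, 1.57 and 1.62 CPM unlesioned and 4.34, 2.497 and 6.06 CPM at 4dpl (1.48, standard error 0.45) and Sema3a at 1.69, 3.57 and 5.18 CPM unlesioned and 0.822, 0.676 and 1.704 CPM at 4dpl (-1.71, standard error 0.51), the last with overlapping groups. Leaving out unlesioned replicate 1 gave 4 fibroblast genes higher and 2 lower, and 5 growth factors and repair signals higher and 2 lower. Matrix calls numbered 10 higher without unlesioned replicate 1, 5 without 4dpl replicate 3 and 0 without any one of the other 4 libraries, and 6 higher and 3 lower under the other scaling.

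Of 27 genes of heme, iron and oxidative stress handling, 8 were called higher, 0 lower and 19 were not called (median log2 fold change 0.74). The ferritin light chain Ftl1 was at 3122, 1607 and 2265 CPM unlesioned and 8652, 7043 and 4146 CPM at 4dpl (log2 fold change 1.504, standard error 0.41, edgeR adjusted p = 0.0417), and the peroxiredoxin Prdx1 at 759, 471 and 620.1 CPM unlesioned and 2122, 1479.8 and 936 CPM at 4dpl. Prdx1 rose by 1.29 on the log2 scale (standard error 0.33, edgeR adjusted p = 0.0367). The iron importer Slc39a14 was at 26.2, 6.71 and 17.1 CPM unlesioned and 53.6, 55.4 and 45.3 CPM at 4dpl (log2 fold change 1.62, standard error 0.38). For all 3 the groups did not overlap. Hmox1, which degrades heme, varied most within groups, at 666, 74.6 and 295 CPM unlesioned and 3103, 1869.9 and 545 CPM at 4dpl, so that 4dpl replicate 3 fell below unlesioned replicate 1, and it was not called (edgeR adjusted p = 0.0637, log2 fold change 2.41, standard error 0.803). The erythroid list, a measure of the blood in each library, summed to 89645, 100175 and 34295 CPM in the unlesioned libraries and 41055, 32844 and 12177 CPM at 4dpl, and 0 of its 7 members tested were called, though 4 were called lower under the other scaling. Heme and iron calls numbered 15, 1 and 1 without unlesioned replicates 1, 2 and 3, 1, 1 and 9 without 4dpl replicates 1, 2 and 3, and 4 higher and 2 lower under the other scaling.

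Of 30 genes of glycolysis, the pentose phosphate pathway and the citrate cycle, 7 were called higher and 0 lower (median log2 fold change 0.57). The isocitrate dehydrogenase subunit Idh3a was at 44.9, 27.7 and 33.8 CPM unlesioned and 84.8, 74.9 and 71.3 CPM at 4dpl (log2 fold change 1.12, standard error 0.22, edgeR adjusted p = 0.0256), and Sdha, an enzyme of the same cycle, rose by 0.92 (standard error 0.27) on the log2 scale. Pfkl, a phosphofructokinase of glycolysis, was at 116, 68.3 and 102 CPM unlesioned and 224, 251 and 186 CPM at 4dpl (log2 fold change 1.21, standard error 0.28). Of 29 nuclear genes of oxidative phosphorylation, 28 had a log2 fold change above 0 but only Sdhc and Ndufs1 were called, and the list median of 0.36 lies below that of well expressed genes. Of 25 chaperone and stress genes 4 were called higher, near the 15.5% of well expressed genes, with the small heat shock protein Hspb1 at 1.73, 1.51 and 1.95 CPM unlesioned and 6.29, 8.08 and 4.12 CPM at 4dpl (log2 fold change 1.83, standard error 0.38, edgeR adjusted p = 0.0256) and the endoplasmic reticulum isomerase Pdia4 at 168, 74.3 and 112 CPM unlesioned and 363, 306 and 212 CPM at 4dpl (log2 fold change 1.32, standard error 0.35). Cell cycle genes did not pass the test, with 0 of 27 called by edgeR and 0 at an unadjusted p below 0.01, and Mki67 was at 159, 112 and 86.1 CPM unlesioned and 95.3, 89.5 and 79.2 CPM at 4dpl and Top2a at 154, 100.1 and 74.7 CPM unlesioned and 119, 104 and 97.8 CPM at 4dpl. Without unlesioned replicate 1, 16 of 30 metabolic, 10 of 29 oxidative phosphorylation, 10 of 25 chaperone and 5 of 27 cell cycle genes were called higher, against 41.8% of well expressed genes. None was called in these 4 lists without any one of unlesioned replicates 2 and 3 and 4dpl replicates 1 and 2, and 3, 0, 2 and 0 were called higher under the other scaling.

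Few well expressed genes fell. The 10 largest falls among genes that averaged 4 log2 CPM or more over the control libraries included transcription factors that respond quickly to stimuli and to dissociation. Jund, an AP-1 subunit, was at 81.05, 69.4 and 45.7 CPM unlesioned and 10.6, 18.97 and 19.1 CPM at 4dpl (log2 fold change -2.01, standard error 0.34, edgeR adjusted p = 0.0214). Klf2, which maintains quiescence in leukocytes and vessels, was at 315, 227 and 116 CPM unlesioned and 59.01, 89.3 and 68.8 CPM at 4dpl. Klf2 fell by 1.601 on the log2 scale (standard error 0.36, edgeR adjusted p = 0.0293). These were the 2 of 25 immediate early genes called, while Fos was at 2818, 1885 and 2051 CPM unlesioned and 2576, 3243 and 2754 CPM at 4dpl and Jun at 1044, 916 and 1053 CPM unlesioned and 912, 1431 and 1139 CPM at 4dpl without a call. Without unlesioned replicate 1, 8 of the 25 were called higher and 2 lower, against 41.8% and 0.558% of well expressed genes in that fit. Some genes of granulocytes and blood were also called lower. Prg2, the major basic protein of eosinophils, was at 146, 118 and 46.8 CPM unlesioned and 21.98, 10.04 and 13.3 CPM at 4dpl (log2 fold change -2.78, standard error 0.56, edgeR adjusted p = 0.0256), and the eosinophil ribonuclease Ear6, which averaged below 4 log2 CPM, at 6.59, 4.76 and 1.97 CPM unlesioned and 1.19, 0.0867 and 0.161 CPM at 4dpl (log2 fold change -3.19, standard error 0.77). Rhd, a blood group antigen of erythroid cells, was at 51.2, 50.1 and 20.4 CPM unlesioned and 17.3, 13.7 and 8.27 CPM at 4dpl (-1.63, standard error 0.47), and Mcpt8, a basophil protease, at 57.3, 63.5 and 23.8 CPM unlesioned and 15.0004, 16.5 and 18.9 CPM at 4dpl (-1.52, standard error 0.44), the latter chosen after its values were seen. In all 4 the 3 lesioned libraries were below the unlesioned ones. The 12 neutrophil genes summed to 97847, 100342 and 46691 CPM in the unlesioned libraries and 38018, 30338 and 31797 CPM at 4dpl, and 0 of them were called by edgeR, S100a8 having an adjusted p of 0.132, though 4 were called lower under the other scaling and 1 higher without unlesioned replicate 1. Dusp5, Gpr62, Alyref and Hist1h4d, which encode a phosphatase, an orphan receptor of oligodendrocytes, an RNA export factor and a histone, had log2 fold changes of -1.84, -1.84, -1.82 and -1.703 (standard errors 0.42, 0.54, 0.51 and 0.37). Without unlesioned replicate 1 the calls of Rhd, Mcpt8, Gpr62 and Alyref were lost, and those of Jund, Klf2, Prg2, Ear6, Dusp5 and Hist1h4d were kept.

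Among called genes with separated groups and an average of 1 log2 CPM or more, predicted and Rik genes left out, 9 of the 10 largest falls were of antibody genes. Ighg1, a heavy chain constant gene, was at 7.36, 0.552 and 9.11 CPM unlesioned and 0.0175, 0.05202 and 0.0921 CPM at 4dpl (log2 fold change -6.71, standard error 1.698, edgeR adjusted p = 0.03604), with unlesioned replicate 2 more than 10-fold below the other unlesioned libraries. Ighg3 was at 0.301, 48.9 and 0.352 CPM unlesioned and 0.03497, 0.156 and 0.02303 CPM at 4dpl (log2 fold change -7.75, standard error 1.79), a level set by unlesioned replicate 2 alone. Variable segments of antibodies made up 7 of these 10. Of all 138 antibody variable genes tested, 18 were called lower and 0 higher, with a median log2 fold change of -2.02. That share called lower lay between those of the receptor genes and of the low protein-coding genes given below. Of 11 antibody constant genes, 2 were called lower and 0 higher. Of 19 lymphocyte markers, Ighg1 and Ighg3 were the 2 called, both lower, and 1 was called higher without unlesioned replicate 1. The kappa constant gene Igkc, which most antibody cells share, was at 997, 957 and 277 CPM unlesioned and 379.7, 174 and 128 CPM at 4dpl and was not called (log2 fold change -1.71, standard error 0.62, edgeR adjusted p = 0.0797). Most of the other falls were of very low genes. Of 1056 olfactory, vomeronasal and trace amine receptor genes tested, 0 were called higher and 162 lower (15.3%), with a median log2 fold change of -2.28. Protein-coding genes that averaged below 0 log2 CPM showed a like pattern, 509 of 4755 lower (10.7%) and 2 higher, with a median of -1.65. Predicted genes, named Gm and a number, were lower in 627 of 9392 cases (6.68%), and long intergenic RNAs in 217 of 2761 (7.86%). The predicted gene Gm10800, chosen after its values were seen, was at 589, 676 and 1283 CPM unlesioned and 129, 117 and 225 CPM at 4dpl. Gm10800 fell by 2.44 on the log2 scale (standard error 0.57, edgeR adjusted p = 0.0308). Unlesioned replicate 3 was highest for Gm10800 and for the receptor genes, and the part of this low-level signal in the falls was not tested.

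Of 18 enzymes that write and erase DNA methylation or feed that chemistry, the subject of the study, 1 was called, Idh1, a cytosolic dehydrogenase that supplies the cofactor 2-oxoglutarate, at 154, 62.98 and 69.03 CPM unlesioned and 237, 184 and 169 CPM at 4dpl (log2 fold change 1.05, standard error 0.31, edgeR adjusted p = 0.0472). Tet1, which oxidises methylcytosine, was at 15.03, 14.9 and 18.3 CPM unlesioned and 12.5, 11.7 and 12.04 CPM at 4dpl (log2 fold change -0.42, standard error 0.27, edgeR adjusted p = 0.287), with each lesioned library below each unlesioned one. Tet2 and Tet3 had log2 fold changes of 0.33 (standard error 0.25) and -0.13 (standard error 0.197), neither called. Without unlesioned replicate 1, 5 of the 18 were called higher, below the 41.8% of well expressed genes in that fit. The number was 1 without 4dpl replicate 3 and 0 without any one of the other 4 libraries. The other scaling called 0 higher and 2 lower. The median of the 18 genes was 0.17, and it ranged from 0.06 to 0.46 with 1 library left out and was -0.31 under the other scaling.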

How the data were processed

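RNA was sequenced from 12 libraries in 4 groups of 3, and the 6 control libraries are reported here. Per the study's methods the authors aligned reads to GRCm38 with BWA. Reads that aligned uniquely were assigned to Ensembl exons by featureCounts, and the authors deposited the raw counts per gene without normalization. The submitters' processing notes name STAR and DESeq2 1.2.5 instead, so the aligner is uncertain. Whether strand was used in counting is not given in the sources used here, so a gene and its antisense partner cannot be told apart. The tables list 54838 genes. The 37 mitochondrial genes are all at 0 and were not tested.

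Groups were taken from the sample labels. The analysis used edgeR 4.0.16 under R 4.3.3. The filter on low counts (filterByExpr, 4 groups) kept 31109 genes. Libraries were scaled by TMM, and all 12 were fitted together so that the groups shared an estimate of the spread (glmQLFit, glmQLFTest, default settings). Each standard error is the absolute log2 fold change divided by the root of F. At these depths counting error matters little for well expressed genes, and precision is limited by having 3 libraries per group. The fits were tested on simulated data with known changes. The members and gene lists were chosen with earlier results of these data known, so the counts per list are descriptions and no list was tested as a set.

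Genes named are the 15 largest rises and 10 largest falls among called genes with separated groups and an average of 1 log2 CPM or more, leaving out predicted (Gm and a number) and Rik genes, the 10 largest falls that average 4 log2 CPM or more, the 10 smallest p-values, the Tet genes, and from each list its leading members and those called. Some genes under this rule are not reported, and a gene outside it is said to be so. Where a symbol had more than 1 identifier, the one with the highest counts was used. Promoters are the RefSeq table for GRCm38.p6, matched by symbol for 17141 genes tested. The alternatives were DESeq2 1.42.0, limma 3.58.1 with voom and sample weights, a fit to the 6 control libraries, other scalings, filters and thresholds, the newer quasi-likelihood option of edgeR (legacy set to FALSE), a replicate block, and leaving out each library. The labels do not tie libraries to mice, so replicate numbers were not used as pairs.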

Additional observations from a re-analysis of the deposited data

How the results depend on the processing

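Against 1592 genes called higher and 1558 lower, the numbers were 2620 and 4376 with DESeq2 on all 12 libraries, 2431 and 2887 with DESeq2 on the 6 control libraries, 613 and 549 with edgeR on those 6, 4836 and 4827 with voom and sample weights, and 2229 and 3719 with the newer quasi-likelihood option. An adjusted p below 0.10 gave 3292 and 4273, an absolute log2 fold change of at least 1 gave 1010 and 1536, and a filter of at least 10 counts in every library gave 679 and 616 of 17528 genes. Scaling on well expressed genes, chosen after the data were seen, gave 534 and 4346. RLE size factors gave 1521 and 1720, and no filter on low counts 1989 and 1593. With 1 library left out the counts ranged from 1 to 4124 higher and from 0 to 3277 lower, and the cause was not tested. Every gene named as called kept its direction in each setting that tested it.

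A replicate block by the number in the labels gave 2337 higher and 1507 lower. Deviations of same-numbered libraries correlated at 0.19, 0.05 and 0.19 for replicates 1, 2 and 3. Not all exceed the minimum set for pairing. With 3 libraries per group, these correlations cannot decide whether same-numbered libraries share a mouse. Every library did correlate best with its own number. The numbers used are those of the sample titles. The names of the deposited tables number the lesioned control libraries from 2 to 4, and pairs by those numbers correlated at -0.09 and -0.02.

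Among uncalled genes, Neu1 changed sign to -0.0057 and Tet2 to -0.12 when scaled on well expressed genes, and Tet3 ranged from -0.17 to 0.011 with 1 library left out, changing sign without 4dpl replicate 1. Depth does not limit well expressed genes, whereas most falls rest on genes with few counts per library, and 3 libraries per group limit every call.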

Other observations

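Solute carriers, the transporters of ions and small molecules across membranes, were called in both directions, with 50 of 373 higher (13.4%) and 24 lower (6.43%) and a median log2 fold change of 0.09. Over all genes tested the shares were 5.12% and 5.01%. They were 8.23% and 4.08% for protein-coding genes, and 15.5% and 0.643% for well expressed genes. The median level of the solute carriers was 2.70 log2 CPM, and genes between 2 and 4 log2 CPM had shares of 6.68% and 1.51%. Of 78 ribosomal protein genes 1 was called higher and 0 lower, and their median log2 fold change of 0.30 lay below that of well expressed genes, 0.42. Of 56 genes of the histone clusters 0 were called higher and 8 lower, with a median of -0.84. Ribosomal protein genes are close relatives of many pseudogenes and histone genes of each other, so reads may be shared among copies.

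The change after lesion was set against that in the libraries labelled Tet1 mutant, and edgeR called 0 of 31109 genes on the interaction term. At an unadjusted p below 0.05 the interaction listed 1184 genes (3.81%), where a threshold of 0.05 passes about 5% of genes if none differs.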
